A study of Mus musculus with 6 samples.

Results

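The EGF receptors and their ligands were described in cultured mouse squamous cell carcinoma cells (SCCc), for which 9 genes were taken by name out of the 23698 gene entries counted in each library. They comprised the 3 receptors Egfr, Erbb2 and Erbb3 and the 6 ligands Areg, Ereg, Hbegf, Tgfa, Btc and Epgn, and none of them shared an entry with another gene. SCCc are keratinocytes of newborn (P0) mouse back skin that carry HrasG12V and a knockout of floxed Tgfbr2, and they were used at passages 10 to 15. One kind of cell was therefore measured, with 1 ribosome profiling library and 2 RNA-seq libraries (replicates 1 and 2), and no other genotype or treatment enters the values. Nothing in the labels says that the replicates came from separate cultures, so their spread may be technical. The wild-type and long-read libraries of the series were not analysed here.

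Receptors of this family are tyrosine kinases of the cell surface that bind a ligand, pair with each other and signal through the RAS and PI3-kinase pathways. The ligands are made as membrane-anchored precursors and are cut off by metalloproteases such as ADAM17. In the epidermis the pathway is known for driving keratinocyte growth and migration and for holding back differentiation.

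Ribosome profiling sequences the mRNA fragments protected by ribosomes, called footprints, and RNA-seq measures the mRNA itself. The sum of exon counts was 3549555 for footprints, 10707930 for RNA-seq replicate 1 and 14003713 for replicate 2. Levels are given as RPKM, the count divided by the counted length and by these sums. Footprint levels refer to the coding sequence (CDS) and RNA levels to exons. Intervals and errors on counts cover counting error only, since reads copied by PCR do not stand for separate molecules.

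The label of the cells was checked against marker genes. All 6 basal keratinocyte markers passed the filters, and Krt5, the most abundant, had 7965 RPKM in RNA-seq replicate 1 and 9483 RPKM in replicate 2. Their RPKM summed to 14347 and 16466 in the RNA-seq replicates and to 8667 in footprints. Of the 4 markers of differentiated keratinocytes 3 passed, with sums of 118 and 120 RPKM in RNA and 88.3 RPKM in footprints, mostly from Ivl. None of the 8 fibroblast markers passed, although 4 of them exceeded 1 RPKM in each RNA-seq replicate. The RNA of the 8 markers summed to 10.3 and 16.0 RPKM, led by Col3a1 with 3.89 and 5.49 RPKM. Their footprints summed to 0.870 RPKM and all came from Pdgfra. Col1a1, Col1a2 and Col3a1 had no footprint on the CDS, which the filters required. Col1a1 had 2.02 RPKM in replicate 1 and 4.19 RPKM in replicate 2. Of the 6 melanocyte markers only Pmel passed, with 5.03 and 5.19 RPKM. Of the 5 immune markers only Cd68 passed, with 35.1 and 37.3 RPKM, and Cd3e and Cd207 were at 0 in all 3 libraries. Lyz2 had 2.71 RPKM in RNA-seq replicate 1 and 8.56 RPKM in replicate 2, without a footprint. None of the 3 endothelial markers passed.

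The receptors lay near the middle of the genes that passed the filters in RNA, with 63.7% of them below Erbb2, 55.1% below Egfr and 42.5% below Erbb3. Erbb2, which binds no known ligand and acts as the partner of the other receptors, had 21.8 RPKM in RNA-seq replicate 1 and 24.3 RPKM in replicate 2. Egfr, the receptor of all 6 ligands studied, had 18.0 and 17.5 RPKM. Erbb3, whose kinase is weak and which signals through its partners, had 11.6 and 13.0 RPKM. The order of the receptors in RNA was thus Erbb2, Egfr and Erbb3 in both replicates, without overlap between neighbours. Only the CDS of Erbb3 was counted, apart from 3 nt of 3′UTR, so its RNA level rests on another part of the mRNA than that of the other genes.

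In footprints the order of the receptors was different. Egfr was highest with 283.9 footprints on the CDS, or 21.8 RPKM with a 95% Poisson interval of 19.3 to 24.5. Erbb2 had 156 footprints and 11.7 RPKM (9.91 to 13.6), and Erbb3 had 88.7 footprints and 6.22 RPKM (5.01 to 7.68). The intervals of the 3 receptors did not overlap.

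Among the ligands, Epgn was the most abundant. Epgn encodes epigen, a ligand of EGFR, and had 71.7 and 67.2 RPKM in RNA, above 89.0% of the genes that passed the filters. Tgfa, the transforming growth factor alpha of keratinocytes, followed with 33.2 and 31.7 RPKM. Areg, which encodes amphiregulin, had 19.7 and 15.9 RPKM and overlapped Egfr. With RNA-seq counted over the CDS instead, Areg had 27.6 and 23.5 RPKM and Egfr 19.2 and 19.9 RPKM, without overlap. Hbegf, the heparin-binding ligand, had 8.72 and 8.30 RPKM. Ereg, which encodes epiregulin, had 6.05 and 4.45 RPKM. Both Hbegf and Ereg lay below every receptor in RNA. Epgn made up 51.3% and 52.6% of the summed ligand RPKM in the RNA-seq replicates.

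Btc, which encodes betacellulin, was close to the limit of detection. It had 14 and 11 RNA-seq counts, or 0.455 and 0.273 RPKM, and 2 footprints on the CDS, or 1.06 RPKM with an interval of 0.129 to 3.83. The 3 counts that serve as the detection floor correspond to 0.0974 RPKM in RNA-seq replicate 1 and 0.0745 RPKM in replicate 2 for this gene. Btc did not pass the filters, and no efficiency is given for it in the comparisons.

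In footprints the ligands lay closer together than in RNA. Epgn was again highest, with 269.6 footprints and 167 RPKM (148 to 188). Tgfa had 82.9 RPKM (69.6 to 97.6), Hbegf 72.3 RPKM (61.5 to 84.3), Areg 72.3 RPKM (62.4 to 83.3) and Ereg 58.3 RPKM (47.7 to 71.1). Neighbours among these 4 ligands did not differ beyond their intervals, whereas Ereg, the lowest of them, was 2.68 times the level of Egfr. Summed over each group, ligand RPKM was 2.72 and 2.33 times receptor RPKM in the RNA-seq replicates and 11.4 times in footprints. As counts not divided by length, footprints of the ligands were 1.63 times those of the receptors.

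**Figure D1:**
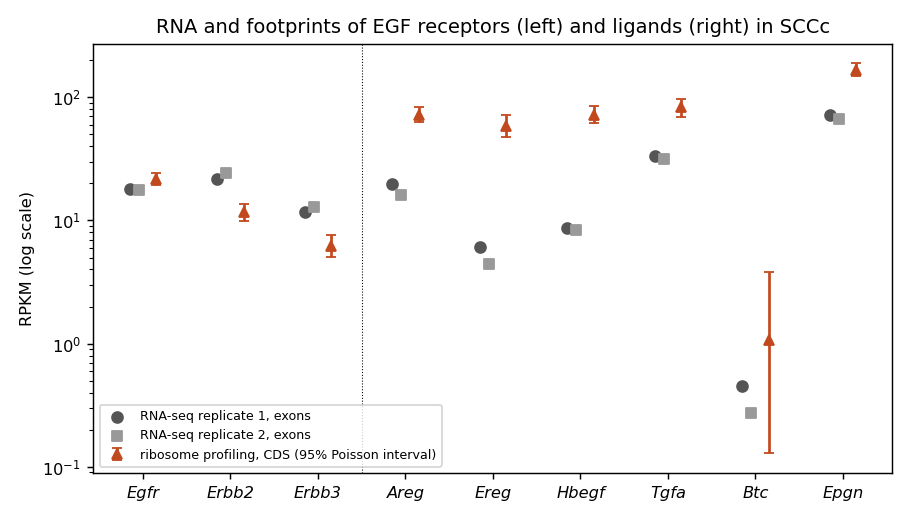
RPKM on a log axis for each receptor (left of the dotted line) and ligand (right). Circles and squares are RNA-seq replicates 1 and 2 on exons, and triangles are footprints on the CDS with 95% Poisson intervals. Epgn is highest in both measurements. With each library divided by its sum of exon counts, footprints lie above RNA for the ligands and below RNA for Erbb2 and Erbb3. That position depends on the library total used.

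The RNA-seq replicates were close for most members. The log2 ratio of replicate 2 over replicate 1 had an SD of 0.20 over the 9863 genes that passed the filters. Ereg had a ratio of -0.44 and Areg of -0.31, both outside that SD, with counting errors of 0.13 for each. Erbb2 and Erbb3 had ratios of 0.15 and 0.16. The other genes that passed lay between -0.09 and -0.04. Btc, which did not pass, had -0.74 with a counting error of 0.58. Among the 8 members that passed, Ereg and Areg therefore carry the largest spread of efficiency between replicates. Over the 9863 genes, counts of the replicates differed by more than counting error, with a chi-square of 7.52 per degree of freedom. Intervals of counting error alone can therefore be too narrow.

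Translational efficiency divides the footprint level of a gene by its mean RNA level and is given as a log2 value relative to the median gene. That median is over the 9863 genes that had footprints on a counted CDS, exceeded 1 RPKM in each RNA-seq replicate and had a mean normalized count (base mean) above 25. Of the 9 members, 8 passed. A log2 efficiency above 1 was found for 4 of these 8, Ereg, Hbegf, Areg and Tgfa, beside 20.8% of all genes that passed. An efficiency below -1 was found for 2, Erbb2 and Erbb3, beside 21.1% of all genes. The median over the 5 ligands that passed was 1.68, and each of them lay above the median gene. The median over the 3 receptors was -1.32, with Egfr at the median gene and Erbb2 and Erbb3 below it. Of ribosome profiling, 1 library was analysed here, so the differences between genes have no replicate check on that side and no p-value is given.

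Per counted length, Ereg had the highest value among the members, a log2 efficiency of 3.13 ± 0.30 (SD over the RNA-seq replicates, n = 2), or 8.76 times the median gene, and 97.9% of genes lay below it. Hbegf followed with 2.74 ± 0.04. The difference of 0.39 between them, with a counting error of 0.20, was within the 95% counting interval. Both had less RNA than Tgfa and Areg and footprints whose intervals overlapped theirs, below those of Epgn. With a filter on the deposited RPKM instead, Ereg did not pass, and 3 of 7 members were above 1, beside 19.8% of all genes.

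Areg had a log2 efficiency of 1.68 ± 0.21, lower than Hbegf by more than the counting error. Tgfa had 1.01 ± 0.04 and Epgn 0.92 ± 0.06, which did not differ from each other. The interval of Tgfa, 0.77 to 1.26, and that of Epgn, 0.74 to 1.10, both include the threshold of 1, so that Tgfa counts as above it only by a small margin, and with RNA-seq replicate 1 alone Tgfa had 0.98. Epgn, the ligand with the most RNA and the most footprints, was thus together with Tgfa at the lower end of the ligands that passed.

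Egfr lay at the median gene, with -0.05 ± 0.02. With at least 100 counts required in every library, the median is taken over fewer genes, and Egfr came to -0.44 and Tgfa to 0.62, no longer above 1. Erbb2 had -1.33 ± 0.12 and Erbb3 -1.32 ± 0.12, with RNA counted on the CDS alone for Erbb3 and on all exons for Erbb2. With RNA-seq counted over the CDS for every gene, Erbb2 had -1.29 and Erbb3 -1.03. Egfr was higher than both by more than the counting error.

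**Figure D2:**
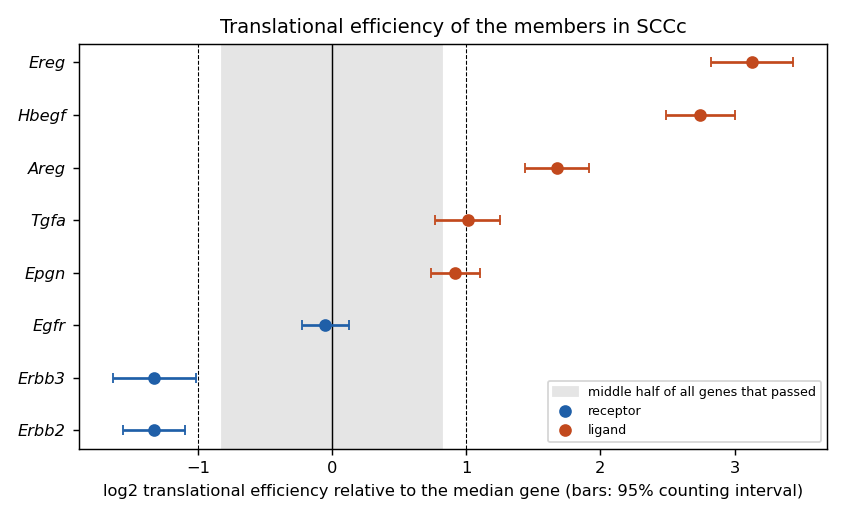
Log2 translational efficiency of the 8 members that passed the filters, relative to the median gene (solid line at 0), with 95% counting intervals. The grey band runs from the lower to the upper quartile of all genes, -0.82 to 0.82, and dashed lines mark -1 and 1. Ligands lie to the right of the receptors.

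The length of the CDS moves with these values. The ligands that passed have counted CDS of 456 to 744 nt and the receptors of 3670 to 4017 nt. Among all genes that passed, the 1711 with a counted CDS of 400 to 800 nt had a median log2 efficiency of 0.65, and 36.6% of them were above 1. The 846 with 3000 to 4500 nt had a median of -0.63, and 37.2% of them were below -1. Both ranges were chosen after the lengths of the members were seen.

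Set against genes of like length, Ereg was 2.48 above the median of its range and Hbegf 2.10 above it, higher than 97.0% and 95.2% of those genes. Areg was 1.03 above it, Tgfa 0.37 and Epgn 0.27. Egfr was 0.58 above the median of the long genes, whereas Erbb2 and Erbb3 were both 0.70 below it, with 27.7% and 27.8% of those genes lower. The part of length in the difference between ligands and receptors was not tested. Without division by length, Tgfa turned to -1.12, Epgn came to 0.03, Egfr to 0.16, Erbb2 to -0.72 and Erbb3 to -0.31. The order of the 3 most efficient ligands also turned, with Areg at 2.00, Hbegf at 1.83 and Ereg at 1.06.

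The untranslated part of the mRNA varied among the members, as annotated in GENCODE M21. Egfr has the longest 3′UTR, 6303 nt, of which only 2431 nt were counted. On that counted part lay 34.5% and 30.4% of its counts in RNA-seq replicates 1 and 2. Areg has the shortest 3′UTR, 253 nt, with 8.11% and 4.02% of its counts there. Tgfa and Ereg have 3′UTRs of 3764 and 3501 nt behind CDS of 480 and 489 nt. In RNA-seq replicate 1, 90.2% of the Tgfa counts and 87.0% of the Ereg counts lay on the 3′UTR, and in replicate 2 87.2% and 80.1%. For Epgn the shares in replicates 1 and 2 were 72.5% and 71.8%, and for Hbegf 58.2% and 54.1%. Btc had 52.2% and 63.6%, from 14 and 11 counts in all. Erbb2, with a 3′UTR of 1048 nt, had 10.8% and 8.99% there. Of the footprints on exons, 1.84% lay on 3′UTRs in the whole library. The share was 13.7% for Tgfa (95% Wilson interval 9.67% to 19.6%), from 25.7 footprints. Ereg had 4.17% (1.90% to 9.94%) and Hbegf 4.01% (2.01% to 7.58%), from 4.71 and 8.16 footprints. The intervals of Epgn, at 2.52% (1.22% to 5.09%), and Areg, at 1.46% (0.441% to 3.73%), include the share of the library. Egfr had 0.0850% (0 to 1.29%) on the counted part of its 3′UTR, and Erbb2 and Btc had none. These shares are not divided by length, and 3471 nt of 3′UTR and 477 nt of CDS were counted for Tgfa. Per counted length, Tgfa footprints had 2.08 RPKM on the 3′UTR and 82.9 RPKM on the CDS. The same 2 levels were 0.382 and 58.3 RPKM for Ereg and 1.58 and 72.3 RPKM for Hbegf. With RNA-seq counted over the CDS in place of exons, Ereg had a log2 efficiency of 3.30, Tgfa 1.35 and Epgn 1.18, while Areg had 1.45 and Hbegf 2.65. Egfr changed sign to 0.11 in that setting, and 5 members were above 1, beside 18.3% of all genes in the same setting.

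Bases around the start codon are shown for 4 members whose efficiencies span the range, as read from GENCODE M21 transcripts of GRCm38. Capitals mark the start codon, with 10 bases on each side.
Ereg: agaaagaaggATGgagacgctcc
Areg: ggtggaaccaATGagaactccgc
Egfr: ccggtcagagATGcgaccctcag
Erbb2: agtgatcatcATGgagctggcgg
Ereg and Erbb2, at opposite ends of the range, both have a purine 3 bases before the start codon and a G right after it. Areg has a C at the first of these places. Over the genes that passed and had a transcript, 87.3% have A or G there and 54.5% have G right after the start codon.

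Upstream start codons were found in the 5′UTR of 2 members, Erbb2 and Erbb3. The single upstream ATG of Erbb2 lies 26 nt before the start codon and opens a reading frame of 6 codons and a stop, which ends before the CDS. That of Erbb3 lies 67 nt before the start codon and opens a frame of 3 codons and a stop. Capitals mark the upstream start and stop codons.
Erbb2: ATGgggccggagccgcagTGA
Erbb3: ATGtcctccTAA
The motif ATG was searched on the mRNA strand in the last 100 bases of the 5′UTR, and 32.1% of the 6684 genes with a 5′UTR of that length hold it. Their median log2 efficiency was -0.48, beside 0.11 for those without it. A match is a description of the sequence and does not show that the codon is used.

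Erbb2 also stood out by its footprints on the 5′UTR. It had 28.5 footprints on 179 counted nt, or 44.8 RPKM, which is 3.84 times its density on the CDS, and 99.1% of the 9392 genes with at least 10 footprints on the CDS had a lower ratio. The log2 ratio was 1.94 with a counting error of 0.29, and the median gene had -1.44. Under a stricter minimum of 30 footprints on the 5′UTR and 60 counted nt of it, Erbb2 has no value. RNA-seq had 3.37 and 4.62 counts on the same 5′UTR. Counts are summed over the whole 5′UTR, and where on it these footprints lie is not known. No 5′UTR of Erbb3 was counted.

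Erbb2 was the 1 member of 7 with a log2 ratio above 0, beside 17.2% of all genes with at least 10 footprints on the CDS. That share was 24.3% among the 1102 genes that met the stricter minimum. The ratio was -0.45 for Areg, with a counting error of 0.26 that does not set it apart from 0 at the 95% level. It was -1.10 for Hbegf (error 0.27) and -1.13 for Egfr (error 0.47). Tgfa and Ereg had -1.84 (error 0.34) and -1.94 (error 0.54), below the median gene. Their counting errors do not set them apart from that median at the 95% level. As a share of all footprints on exons, 5′UTR footprints made up 17.2% for Hbegf (95% Wilson interval 12.7% to 23.0%), 16.2% for Areg (11.8% to 21.2%) and 15.4% for Erbb2 (10.7% to 21.1%), beside 4.50% in the whole library. Tgfa had 11.2% (7.46% to 16.6%) and Egfr 3.36% (1.86% to 6.15%). These shares are not divided by length. By the ratio of densities, 58.5% of the genes with at least 10 footprints on the CDS lay below Hbegf, 74.0% below Areg and 40.6% below Tgfa. Only 6 nt of the Epgn 5′UTR were counted, so its ratio of -0.74 (error 1.00) rests on 2.12 footprints.

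**Figure D3:**
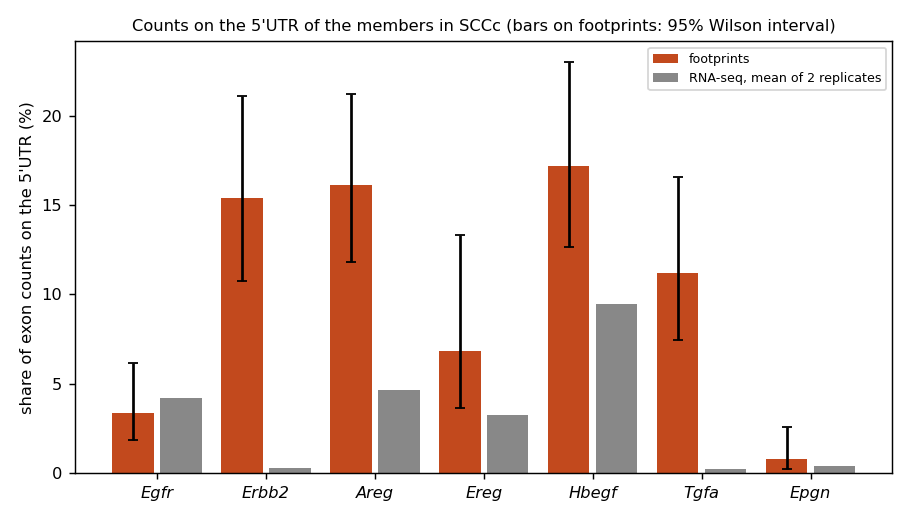
Share of exon counts that lie on the 5′UTR, in percent, for footprints (orange, with 95% Wilson intervals) and RNA-seq (grey, mean of both replicates). Btc and Erbb3 are left out, for 2 footprints on the CDS and no counted 5′UTR. Erbb2 and Tgfa have 15.4% and 11.2% of their footprints there and under 1% of their RNA-seq counts.

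The motif ATTTA, the core of AU-rich elements known for shortening the life of growth factor mRNAs, was searched on the mRNA strand of the 3′UTRs. Egfr holds the most copies, 12 in a 3′UTR of 6303 nt. Ereg holds 9, and Areg holds 4 in a 3′UTR of only 253 nt. Erbb3, Hbegf, Tgfa and Btc hold 4 each, and Epgn and Erbb2 hold none. The first copies in Areg and Ereg, 193 and 74 nt after the stop codon, are shown with the motif in capitals.
Areg: gttgtaaataATTTAtttaatattt
Ereg: tgttaataatATTTAtgttgggtca
In the first 250 bases of the 3′UTR, Areg has 4 copies, Ereg 2 and Btc 1, and the other 6 members have none. Of all genes, 27.8% of the 7890 that passed and have a 3′UTR of that length hold the motif there. Those genes had a median log2 efficiency of 0.10, beside -0.06 for the rest.

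Of the 6 family members outside the 9 genes, 2 passed the filters. Nrg1, a neuregulin that binds ERBB3, had 44.8 and 42.1 RPKM in RNA, 56.7 RPKM in footprints and a log2 efficiency of 0.04. Nrg2 had 42.2 and 51.7 RPKM and an efficiency of -0.92. Both neuregulins thus had more RNA per length than any receptor. Only the CDS of Nrg1 was counted, apart from 3 nt of 3′UTR, and no 5′UTR of Nrg2 was counted. Erbb4, the remaining receptor of the family, had no count in any library, and Egf had 11 and 12.9 RNA-seq counts and no footprint.

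The wider pathway was described with 4 lists of 57 genes in all, of which 51 passed. Their median log2 efficiency was -0.40, with 3 genes above 1 and 13 below -1, beside 20.8% and 21.1% of all genes that passed. With RNA-seq counted over the CDS, 1 gene was above 1, beside 18.3% of all genes in that setting. The median of the receptors, -1.32, was lower, but without division by length the order turned, with -0.31 for the receptors and -0.40 for the other pathway genes. Of the 7 genes of ligand release all passed, with a median of -0.38. Adam17, the main sheddase of Areg, Ereg, Hbegf and Tgfa, had 20.5 and 20.9 RPKM in RNA and an efficiency of -0.41. Adam10, the sheddase of Btc, had 65.2 and 60.1 RPKM and -0.38. Rhbdf1 and Furin were lowest, with -1.61 and -1.41.

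Of the 21 adaptors and direct effectors 19 passed, with a median of -0.55, none above 1 and 6 below -1, beside 20.8% and 21.1% of all genes. Grb2, which links the receptors to RAS activation, was highest with 0.73, and Pik3r2, a regulatory subunit of PI3-kinase, lowest with -3.08. All 23 genes of receptor inhibition and trafficking passed, with a median of -0.38, 3 above 1 and 5 below -1, the latter close to the share of all genes. The 3 were Ap2m1 with 2.99, Ptpn2 with 2.75 and Rab5a with 1.13. For Ap2m1 only 257 nt of CDS and 499 nt of exons were counted. The feedback inhibitors Errfi1 and Lrig1 had -0.70 and -1.96.

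Erbb2 and Erbb3 were also set beside other receptor tyrosine kinases, of which 17 of 36 passed with a median log2 efficiency of -0.97. Of these, 8 were below -1 and 2 above 1, beside 21.1% and 20.8% of all genes. Fgfr3 was lowest with -3.46 from 5 footprints, and Ror1 highest with 1.11. Egfr, at -0.05, was above the median of that list, and Erbb2 and Erbb3 were below it. Met, the HGF receptor, had 45.0 and 41.3 RPKM in RNA and an efficiency of 0.58, higher than Egfr in both.

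**Figure D4:**
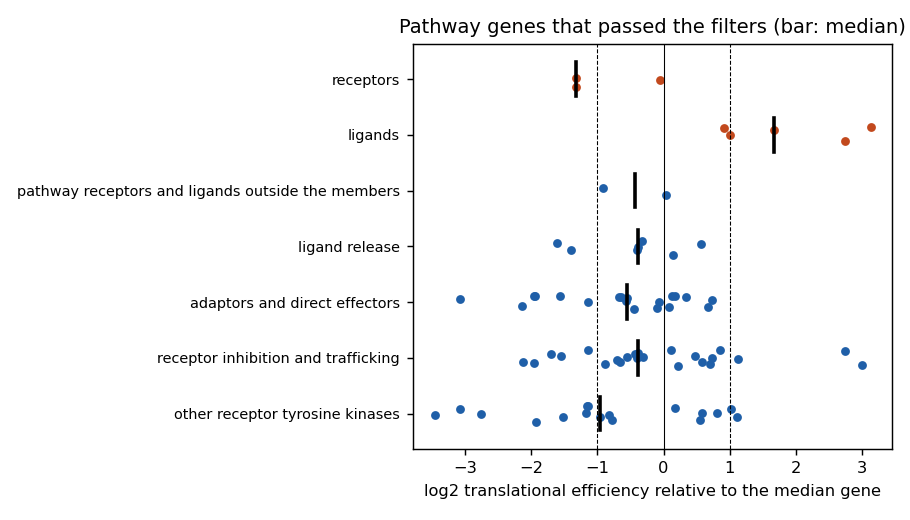
Log2 translational efficiency relative to the median gene for the genes of each list that passed the filters, 1 point per gene, with a bar at the median of the list. The median is 1.68 for the ligands and -1.32 for the receptors, on levels divided by length.

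Genes with the most similar levels were found by the Euclidean distance in log2 RPKM over the 3 libraries. Med21, Stt3a and Ssu72 lay closest to Epgn, Atp6ap2, Flrt3 and Dctpp1 to Tgfa, and Fam103a1, Btf3l4 and Slc12a2 to Areg. Hbegf was closest to Cxcl5, Ptpn2 and Asf1b, at distances of 0.10 to 0.13. Ereg had the most distant neighbours, Dck, Rbpj and Synj2bp, at 0.17 to 0.32. The receptors were closest to Nuak2, Acss2 and Arih2 for Egfr, Xpo6, Cln6 and Rps6kb2 for Erbb2, and Plekhn1, Rnf44 and Wdtc1 for Erbb3.

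In the genome (GRCm38, GENCODE M21), 4 of the 6 ligand genes lie on chromosome 5, namely Epgn at chr5:91027464-91035215, Ereg at chr5:91074622-91093646, Areg at chr5:91139599-91148432 and Btc at chr5:91357261-91402994. Epgn, the ligand with the most RNA, and Btc, the one with the least, are thus in the same cluster. Tgfa lies at chr6:86195223-86275719 and Hbegf at chr18:36504927-36515805. Egfr and Erbb2 are at chr11:16752203-16918158 and chr11:98412470-98437716, and Erbb3 is at chr10:128567523-128589652. Other annotated genes overlap Egfr, Erbb2, Erbb3, Ereg and Tgfa. Whether counting used strand is not given in the sources used here, so reads of a gene and of an overlapping partner cannot be told apart.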

How the data were processed

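The values come from SCCc, with 1 library of footprints and 2 of RNA-seq. Per the submitters' notes and methods, reads were trimmed with Trim Galore and aligned to GRCm38 with STAR 2.6.1. Only ribosome profiling reads were filtered with Bowtie2 2.4.1 after trimming, before that alignment. The authors counted each gene with Plastid, and the deposited values are estimated counts that need not be whole. The RPKM deposited by the authors uses a larger library total, so that mean RNA levels are lower on that scale, such as 3.78 in place of 17.8 for Egfr and 1.11 in place of 5.25 for Ereg. Exon counts were 1.75% of that total for footprints and 21.1% and 21.3% for RNA-seq replicates 1 and 2. Footprint levels are therefore lowered more than RNA levels on the deposited scale, and whether they lie above RNA depends on the scale. The counted lengths deposited beside them did not differ between libraries. The annotation used for counting is not given in the sources used here.

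RPKM was computed again from the sum of exon counts with numpy 2.4.6 and pandas 2.3.3. Base means used size factors of DESeq2 1.42.0 on rounded counts, and edgeR 4.0.16 gave TMM factors as an alternative. The calculation was tested on simulated data. Members and lists were chosen with earlier results of these data known. The text names all 9 members, Erbb4, Egf, Nrg1, Errfi1, Lrig1, Adam17 and Adam10, genes among the 3 highest or lowest of each list, and the 3 nearest genes of each member. Met was named after its values were seen. As alternatives, either RNA-seq replicate was dropped, a pseudocount or another filter was used, RNA-seq was counted over the CDS, or length was not divided out.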

Additional observations from a re-analysis of the deposited data

How the results depend on the processing

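No paired analysis was possible because the comparisons are between genes of the same libraries and come from no test. Leaving out each RNA-seq replicate gave a median log2 efficiency of -1.41 to -1.24 for the receptors, 1.54 to 1.83 for the ligands, 0.93 to 1.00 for the members and -0.41 to -0.40 for the other pathway genes. Without replicate 1, 4 members were above 1, beside 21.1% of all genes, and without replicate 2, 3 members, beside 20.6%.

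Counts scaled to the library total but not divided by length gave a median of 0.10 for the members and -0.31 for the receptors. The medians were 1.06 for the ligands and -0.40 for the other pathway genes. Without division by length, the 1 member below -1 was Tgfa, which reversed to -1.12, beside 21.1% of all genes below -1 in that setting. This alternative leaves out the length by construction. At least 100 counts in every library left 4829 genes, without Erbb3 and Btc, and gave 0.62, -1.08, 1.28 and, for the other pathway genes, -0.46. In that setting 1 member was below -1, beside 15.7% of all genes. RNA-seq over the CDS gave 1.26, -1.03, 1.45 and -0.41, with 1 other pathway gene above 1, beside 18.3% of all genes. A pseudocount of 1 RPKM gave -1.19 for the receptors and -0.37 for the other pathway genes. No filter beyond a count above 0 let Btc in and gave 1.42 for the ligands and -0.41 for the other pathway genes. A filter on the deposited RPKM, chosen after seeing the data, left out Ereg and gave 0.91 for the members and 1.34 for the ligands. Beyond what the construction of an alternative shows, the cause was not tested. Of 62 values of single members under these alternatives, 59 kept their sign. The log2 ratio of the RNA-seq replicates kept its sign for each member with DESeq2 size factors and with TMM factors. The 28.5 footprints on the Erbb2 5′UTR are under the stricter minimum of 30, so that alternative gives no value for it.

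Depth limits Btc, with 2 footprints, and the single ribosome profiling library gives no replicate spread for any footprint value.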
